A study of Homo sapiens with 4 samples.

Results

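The zinc finger genes of human chromosome 19 named ZNF followed by a number were described by position in 4 acute myeloid leukemia cell lines. The rule used chromosome and symbol alone and found 245 genes among 21865 symbols, of which RefSeq (GRCh38.p14) lists 236 as protein coding and 9 as transcribed pseudogenes. The lines are THP-1 and MonoMac-1, both monocytic and both carriers of an MLL-AF9 fusion, the promyelocytic line HL60, and the immature CD34+ line KG1a; fusion and lineage are general knowledge, since the labels give the names only. The cultures shared RPMI/Opti-Media medium with fetal bovine serum and antibiotics, and each line gave 1 library, so no value has a replicate. The THP-1 sample is titled Thp1_tr, and the meaning of that suffix is not stated.

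Zinc finger proteins of this kind carry a row of fingers, each of which grips a few bases of DNA. Many also carry a KRAB domain, which recruits the co-repressor TRIM28 and the histone methyltransferase SETDB1 and so silences chromatin, above all at transposable elements. The genes arose by repeated tandem duplication, so that close relatives lie side by side in dense clusters.

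The 4 libraries held 6.04 to 13.6 gigabases on genes, with THP-1 the shallowest and MonoMac-1 the deepest. All 5 monocyte markers (IRF8, LYZ, CD68, CSF1R and CD14) were higher in THP-1 and MonoMac-1 than in HL60 and KG1a. Of 4 granulocyte precursor markers MPO was highest in HL60, at 4610 RPKM, but ELANE, AZU1 and PRTN3 were lower in HL60 than in THP-1 and MonoMac-1, with ELANE at 1042 RPKM (THP-1), 1313 (MonoMac-1), 76.6 (HL60) and 0.0355 (KG1a). CD34 reached 494 RPKM in KG1a. Of 5 markers of other cell types 2 passed 1 RPKM in some line: CD3E with 14.1 RPKM (KG1a) and 0.926 (HL60) and HBB with 15.2 RPKM (THP-1) and 5.27 (HL60), while EPCAM and COL1A1 stayed under 0.2 RPKM; their part in the results was not tested. In HL60, genes abundant in KG1a were found at a low share of their KG1a level: over 21 genes with at least 50 RPKM in KG1a and under 1% of that in THP-1 and in MonoMac-1, HL60 held a median of 2.71% of the KG1a value (2.40% to 8.03%, leaving out 3 genes at 10% or more). Low HL60 values are therefore also given with that share taken off. In MonoMac-1 10.1% of gene totals up to 2000 sequenced bases were multiples of 100, against 41.7% to 47.0% in the others, and the part of this in the results was not tested.

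Promoters are shown first because the silent stretches begin and end at single genes (250 bases before to 50 after the RefSeq start, GRCh38.p14, 5′ to 3′). ZNF136 stayed on inside the HL60 region with the most silent genes, and ZNF20 and ZNF44 are silent genes on either side of it. Capitals mark each CpG dinucleotide, the site of DNA methylation in vertebrates. The ZNF20 window (minus strand, chr19:12140301-12140600) holds 13 CpG, that of ZNF136 (plus strand, chr19:12162846-12163145) 22 and that of ZNF44 (minus strand, chr19:12294834-12295133) 17.
ZNF20: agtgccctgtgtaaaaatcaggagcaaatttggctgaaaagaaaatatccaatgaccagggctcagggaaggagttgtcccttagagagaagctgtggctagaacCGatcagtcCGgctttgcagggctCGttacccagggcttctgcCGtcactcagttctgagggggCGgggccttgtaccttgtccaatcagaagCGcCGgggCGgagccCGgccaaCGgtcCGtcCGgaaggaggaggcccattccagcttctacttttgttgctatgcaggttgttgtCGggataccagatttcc
ZNF136: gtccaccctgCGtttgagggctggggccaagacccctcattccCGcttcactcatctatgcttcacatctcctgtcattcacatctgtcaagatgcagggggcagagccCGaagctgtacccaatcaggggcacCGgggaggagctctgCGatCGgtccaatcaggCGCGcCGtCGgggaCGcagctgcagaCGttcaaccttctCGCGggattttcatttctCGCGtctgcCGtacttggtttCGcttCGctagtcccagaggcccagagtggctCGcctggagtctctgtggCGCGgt
ZNF44: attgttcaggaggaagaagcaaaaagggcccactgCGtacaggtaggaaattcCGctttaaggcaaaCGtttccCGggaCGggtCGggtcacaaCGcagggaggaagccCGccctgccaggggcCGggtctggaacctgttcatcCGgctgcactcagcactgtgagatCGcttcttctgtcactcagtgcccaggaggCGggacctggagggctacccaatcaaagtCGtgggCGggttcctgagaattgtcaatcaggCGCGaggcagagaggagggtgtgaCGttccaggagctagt
ZNF829 and ZNF568 start back to back and were absent together from MonoMac-1. Their windows (ZNF829: minus strand, chr19:36916242-36916541, 27 CpG; ZNF568: plus strand, chr19:36916082-36916381, 25 CpG) share 140 bases on opposite strands.
ZNF829: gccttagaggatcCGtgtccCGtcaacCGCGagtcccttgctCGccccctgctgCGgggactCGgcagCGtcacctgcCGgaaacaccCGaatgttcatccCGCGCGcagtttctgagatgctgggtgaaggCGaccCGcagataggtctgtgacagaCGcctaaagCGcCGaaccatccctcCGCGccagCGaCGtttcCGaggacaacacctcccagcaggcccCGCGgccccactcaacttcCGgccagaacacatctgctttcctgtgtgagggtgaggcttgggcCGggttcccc
ZNF568: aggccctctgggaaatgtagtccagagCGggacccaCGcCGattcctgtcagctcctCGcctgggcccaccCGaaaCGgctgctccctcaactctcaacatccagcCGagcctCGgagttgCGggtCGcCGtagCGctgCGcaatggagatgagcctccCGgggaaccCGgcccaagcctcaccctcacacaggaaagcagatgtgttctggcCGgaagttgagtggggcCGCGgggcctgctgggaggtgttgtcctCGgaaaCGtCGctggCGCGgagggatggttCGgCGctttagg

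Most of these genes were expressed, at low levels. Of the 245 genes, 222 reached 1 RPKM (reads per kilobase of gene length, scaled to the library total) in at least 1 line, 23 in none, and 215 never reached 10 RPKM. None of the 245 was listed at 0 in every line. 113 genes reached 1 RPKM in all 4 lines, 52 in 3, 25 in 2 and 32 in 1. By line, 182 genes (THP-1), 142 (MonoMac-1), 154 (HL60) and 212 (KG1a) stood at 1 RPKM or more. Among the 222, the median level was 2.86 RPKM (THP-1), 1.47 (MonoMac-1), 2.30 (HL60) and 4.11 (KG1a). KG1a thus used nearly the whole set and, at this cut, MonoMac-1 the fewest. With a cut of 0.5 RPKM HL60 had the fewest, at 169 genes, against 179 in MonoMac-1. In a bulk library, fewer expressing cells and less RNA per cell cannot be told apart.

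The 6 genes with the highest mean are given in full. ZNF146, a protein made almost only of fingers and without a KRAB domain, led in every line, at 48.8 RPKM (THP-1), 37.0 (MonoMac-1), 66.5 (HL60) and 58.0 (KG1a). ZNF787 followed at 23.7 RPKM (THP-1), 29.9 (MonoMac-1), 24.3 (HL60) and 16.8 (KG1a). ZNF317, a KRAB zinc finger gene, stood at 16.2 RPKM (THP-1), 11.8 (MonoMac-1), 18.0 (HL60) and 22.4 (KG1a). ZNF274, which binds the ends of other zinc finger genes and brings SETDB1 there, was lowest in MonoMac-1, at 19.4 RPKM (THP-1), 8.79 (MonoMac-1), 23.7 (HL60) and 12.9 (KG1a). ZNF581 stood at 8.98 RPKM (THP-1), 10.1 (MonoMac-1), 24.3 (HL60) and 17.1 (KG1a), and ZNF428 at 9.02 RPKM (THP-1), 20.8 (MonoMac-1), 8.42 (HL60) and 17.4 (KG1a). The last gene towards the end of the long arm, ZNF446, hardly varied, between 2.40 RPKM (THP-1) and 2.58 (MonoMac-1).

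**Figure D1:**
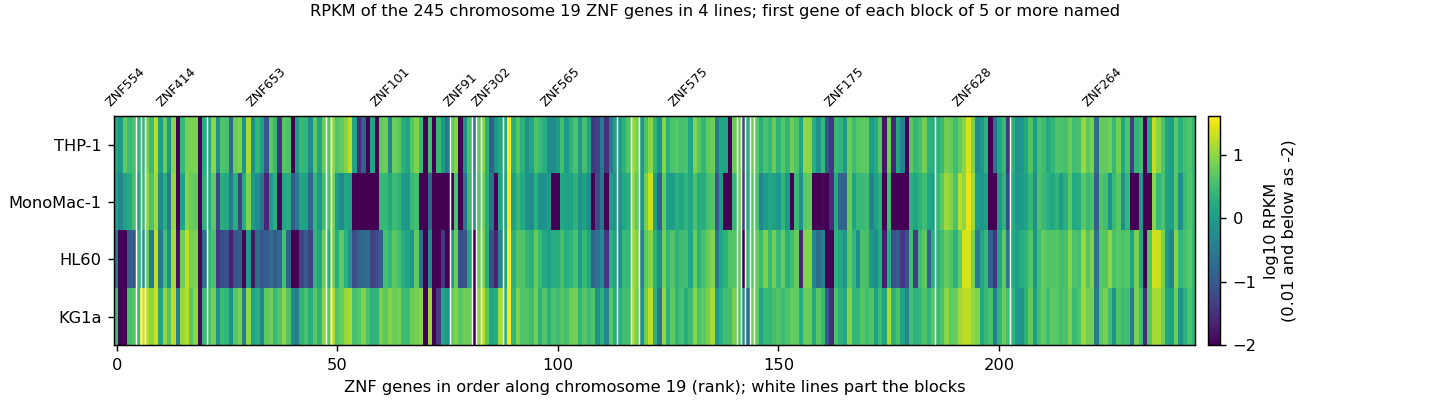
RPKM on a log10 colour scale of the 245 zinc finger genes in their order along chromosome 19 (x axis, rank) in 4 lines (rows, 1 library each). White lines part blocks of neighbours. KG1a is bright nearly throughout, with 212 genes at 1 RPKM or more, while HL60 is dark over the ZNF653 block and MonoMac-1 is dark in short runs spread over several blocks.

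A block was broken where the starts of neighbouring genes lay over 500000 bases apart. This gave 22 blocks, of which 11 held at least 5 genes and together 231 of the 245. In order along the chromosome, these 11 ran from ZNF554 to ZNF77 (5 genes), ZNF414 to ZNF846 (14), ZNF653 to ZNF791 (27), ZNF101 to ZNF99 (27), ZNF91 to ZNF254 (5), ZNF302 to ZNF792 (5), ZNF565 to ZNF573 (26), ZNF575 to ZNF180 (22), ZNF175 to ZNF331 (41), ZNF628 to ZNF835 (17) and ZNF264 to ZNF446 (42). The blocks did not follow a single order of lines. In the ZNF653 block 18 of 27 genes (THP-1), 14 (MonoMac-1), 6 (HL60) and 21 (KG1a) stood at 1 RPKM or more, so HL60 was the sparse line. In the ZNF101 block the counts were 18 of 27 (THP-1), 11 (MonoMac-1), 11 (HL60) and 23 (KG1a). In the ZNF565 block they were 15 of 26 (THP-1), 11 (MonoMac-1), 22 (HL60) and 24 (KG1a), and there HL60 was nearly full. In the ZNF264 block they were 37 of 42 (THP-1), 28 (MonoMac-1), 37 (HL60) and 35 (KG1a), and KG1a did not lead.

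To compare each line with the others, its RPKM was divided by the median of the other 3 lines, for genes whose median there was at least 1 RPKM. The median ratio in MonoMac-1 was 0.558 for chromosome 19 ZNF genes (n = 189), 0.863 for ZNF genes on other chromosomes (n = 210) and 1.05 for the other genes of chromosome 19 (n = 648). In KG1a it was 1.42 (n = 167), against 1.02 for ZNF genes elsewhere and 1.21 for other chromosome 19 genes. In HL60 it was 0.922 (n = 181), against 0.935 and 0.973 for the same groups, and in THP-1 1.08 (n = 173), against 1.12 and 0.789. Of the 222 expressed genes, 133 (59.9%) had their lowest value in MonoMac-1, against 19.7% of all 12976 genes at 1 RPKM in some line, 31.1% of ZNF genes elsewhere and 15.3% of other chromosome 19 genes. In KG1a 131 (59.0%) had their highest value, against 31.0% of all genes, 28.1% of ZNF genes elsewhere and 44.3% of other chromosome 19 genes. These are values of single libraries, and the differences between gene groups were not tested.

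**Figure D2:**
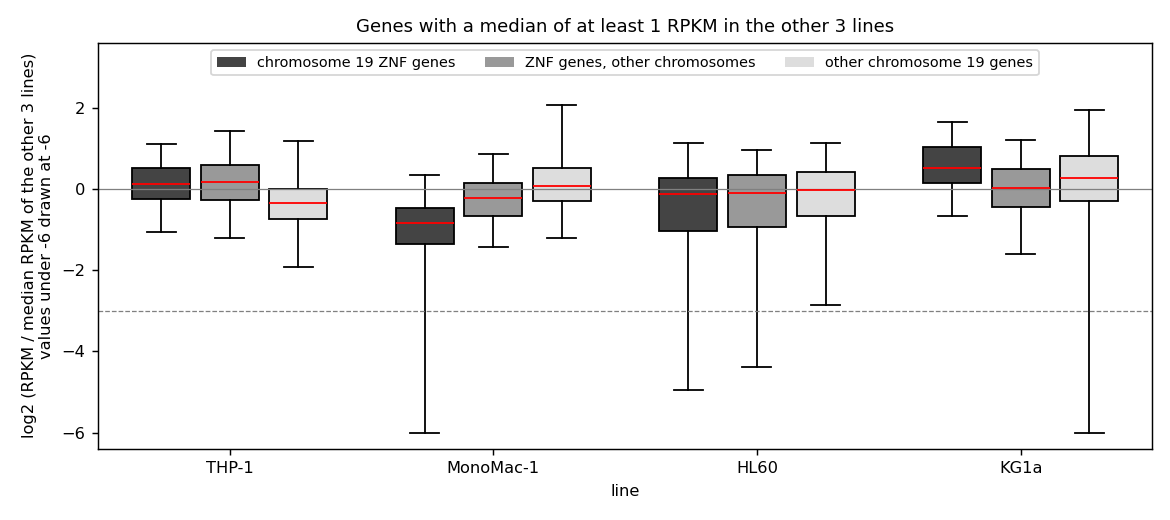
Log2 of the RPKM in a line over the median of the other 3 lines (y axis), for chromosome 19 ZNF genes, ZNF genes of other chromosomes and other chromosome 19 genes in each line (x axis). Boxes span the quartiles, red lines are medians, whiskers reach the 5th and 95th percentiles, and the dashed line marks a ratio of 1/8. The chromosome 19 ZNF box lies lowest in MonoMac-1 (median ratio 0.558) and highest in KG1a (1.42).

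The co-repressor genes through which KRAB proteins act were present in every line. All 14 found reached 1 RPKM, the lowest being ATF7IP at 6.55 RPKM in MonoMac-1. ZNF274, itself a chromosome 19 ZNF gene described above, is among the 14. In each line 0 of 14 lay at or under 1/8 of the median of the other lines. Of all genes 1.95% (THP-1) to 8.13% (KG1a) did so, and 14 genes are too few to differ from that. TRIM28, the scaffold that binds KRAB domains, stood at 157 RPKM (THP-1), 165 (MonoMac-1), 231 (HL60) and 142 (KG1a). SETDB1 stood at 36.7 RPKM (THP-1), 19.7 (MonoMac-1), 17.1 (HL60) and 16.02 (KG1a).

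A gene was called low in a line when its RPKM was at most 1/8 of the median of the other 3. In HL60 25 of 181 genes (13.8%) were low, where 5.53% of all genes and 7.55% of ZNF genes elsewhere were. In MonoMac-1 20 of 189 (10.6%) were low, where 2.42% of all genes and 3.33% of ZNF genes elsewhere were. The count was 1 of 173 in THP-1, where 1.95% of all genes were low, and 2 of 167 in KG1a, where 8.13% were. The calls fell on 40 different genes, since 8 were low in a pair of lines, 6 of them in both HL60 and MonoMac-1. The counts depended on the comparators. With a line left out, the median of those left is their mean, so the rule itself changed. With THP-1 left out 42 were low in HL60, 32 in MonoMac-1 and 1 in KG1a. With MonoMac-1 left out 45 were low in HL60 and 15 in THP-1, and with HL60 left out 38 in MonoMac-1 and 15 in THP-1. The share of all genes under these changed rules was not counted. Near-identical neighbours may share or split reads under the authors' counting, so the level of a single gene is less certain than that of its cluster.

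The silent stretches with the most genes lay in the ZNF653 block of HL60. From ZNF823 to ZNF443 (chromosome 19, 11832080 to 12551926, hg19, 720 kilobases) lay 20 ZNF genes and no other listed gene. In HL60 1 of these 20 reached 1 RPKM, against 13 (THP-1), 10 (MonoMac-1) and 15 (KG1a). Of the 12 genes that could be compared, 11 were low in HL60: a run of 8 from ZNF823 to ZNF20 (ZNF823, ZNF441, ZNF440, ZNF439, ZNF700, ZNF433, ZNF788 and ZNF20) and a run of 3 from ZNF44 to ZNF443 (ZNF44, ZNF799 and ZNF443). The summed level of the 20 was 5.83 RPKM in HL60, of which ZNF136 alone gave 3.39, against 63.9 (THP-1), 26.1 (MonoMac-1) and 70.2 (KG1a).

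Single genes show how far HL60 was from the other lines. ZNF823 stood at 0.0636 RPKM in HL60, against 4.09 RPKM (THP-1), 1.77 (MonoMac-1) and 2.96 (KG1a), 46.6 times below their median. ZNF440 stood at 0.0826 RPKM in HL60, against 6.02 RPKM (THP-1), 1.88 (MonoMac-1) and 4.48 (KG1a). ZNF439 stood at 0.115 RPKM in HL60, against 8.09 RPKM (THP-1), 0.0517 (MonoMac-1) and 7.10 (KG1a), so that HL60 (95% counting interval 0.0639 to 0.192) and MonoMac-1 (0.0251 to 0.0940) were both low in it. ZNF700 kept the highest level of the run in HL60, at 0.882 RPKM in HL60, against 14.5 RPKM (THP-1), 8.09 (MonoMac-1) and 9.73 (KG1a). ZNF433 kept the largest part of its KG1a level, at 0.188 RPKM in HL60, against 2.48 RPKM (THP-1), 0.599 (MonoMac-1) and 1.801 (KG1a). The other genes of the run of 8 lay between 0.0786 RPKM (ZNF441) and 0.199 (ZNF788) in HL60, under all other lines. In the run of 3, ZNF44 stood at 0.129 RPKM in HL60, against 3.99 RPKM (THP-1), 1.78 (MonoMac-1) and 4.21 (KG1a). ZNF799 stood at 0.0510 RPKM in HL60, against 2.59 RPKM (THP-1), 1.31 (MonoMac-1) and 2.29 (KG1a), and ZNF443 at 0.113 RPKM in HL60, against 2.36 RPKM (THP-1), 1.24 (MonoMac-1) and 3.66 (KG1a).

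ZNF136, a KRAB zinc finger gene, broke the stretch. It lies between the runs (12273872 to 12300064, hg19) and stood at 3.39 RPKM in HL60, against 4.63 RPKM (THP-1), 1.46 (MonoMac-1) and 9.43 (KG1a), within the range of the other lines. Its neighbour ZNF625, used in KG1a alone, stood at 0.169 RPKM in HL60 and 4.43 in KG1a. Both ends of the block were on in HL60, with ZNF627 at 3.64 RPKM before the stretch and ZNF564 at 2.28 and ZNF791 at 6.93 RPKM after it. The next listed gene beyond the block, the lysosomal mannosidase gene MAN2B1, stood at 118 RPKM in HL60, against 101 (THP-1), 63.7 (MonoMac-1) and 27.6 (KG1a). The nearest listed gene before the stretch that is no ZNF gene, ACP5, was not on, at 0.127 RPKM in HL60, against 0.125 (THP-1), 1.08 (MonoMac-1) and 0.0193 (KG1a).

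**Figure D3:**
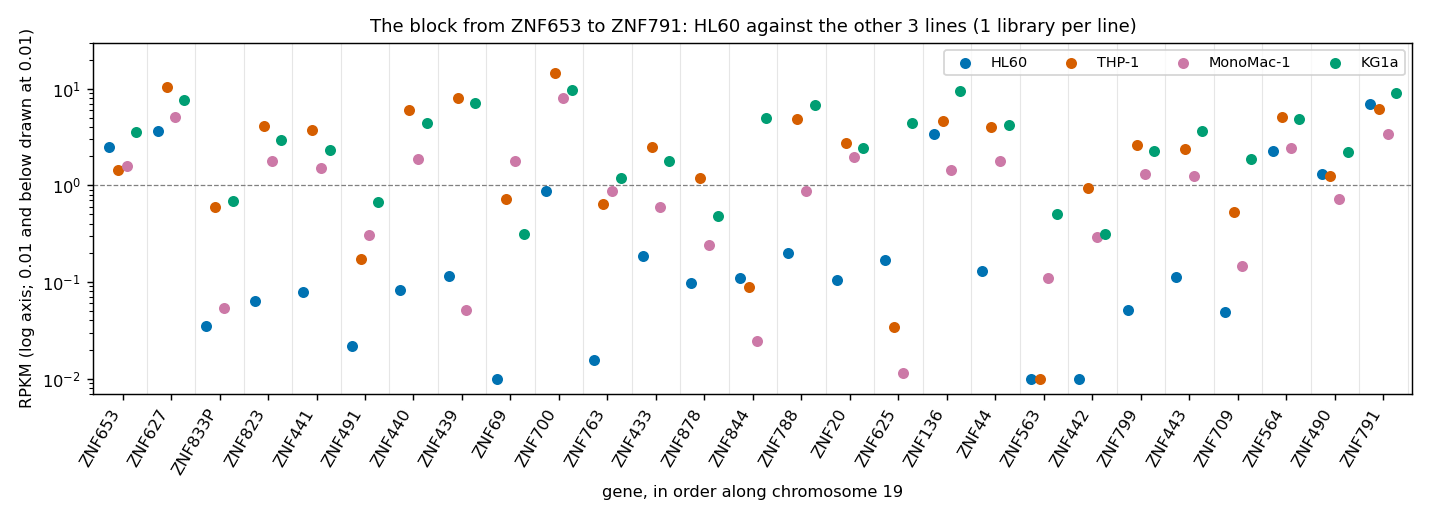
RPKM (log y axis, values of 0.01 and below drawn at 0.01) of the 27 genes from ZNF653 to ZNF791 in order along chromosome 19 (x axis), with HL60 and the other 3 lines side by side. The dashed line marks 1 RPKM. HL60 points lie under that line from ZNF833P to ZNF709 except at ZNF136, at 3.39 RPKM.

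What remained in HL60 was set beside the share at which KG1a genes were found there. The rule for low genes itself keeps their HL60 values far below the other lines, and the source of the remainder was not tested. Over the 25 low genes the HL60 value was a median of 2.87% of the KG1a value, with 1.46% for ZNF836 as the lowest share above 0 and 10.4% for ZNF433 as the highest; ZNF556 was listed at 0 in both lines. With 2.71% of the KG1a value taken off, 12 of the 25 stood at 0 and 21 under 0.1 RPKM in HL60. Those above were ZNF700 (0.618 RPKM), ZNF93 (0.427), ZNF433 (0.139) and ZNF846 (0.126). The share taken off is a median, and it ran from 2.40% to 8.03% over the genes used. In HL60 ZNF93 (6.11% of KG1a) and ZNF846 (7.09%) lay within that range, ZNF700 (9.06%) and ZNF433 above it. Within the ZNF823 to ZNF443 span 17 of 20 genes then stood under 0.1 RPKM and 9 at 0. Taking the share off can only lower HL60, so none of the 25 calls could be lost by it, and 4 genes joined them. With KG1a left out of the comparison 22 genes were low in HL60, 20 of them among the 25. That leaves the HL60 values, and any share in them, as they were, so it does not test the share.

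**Figure D4:**
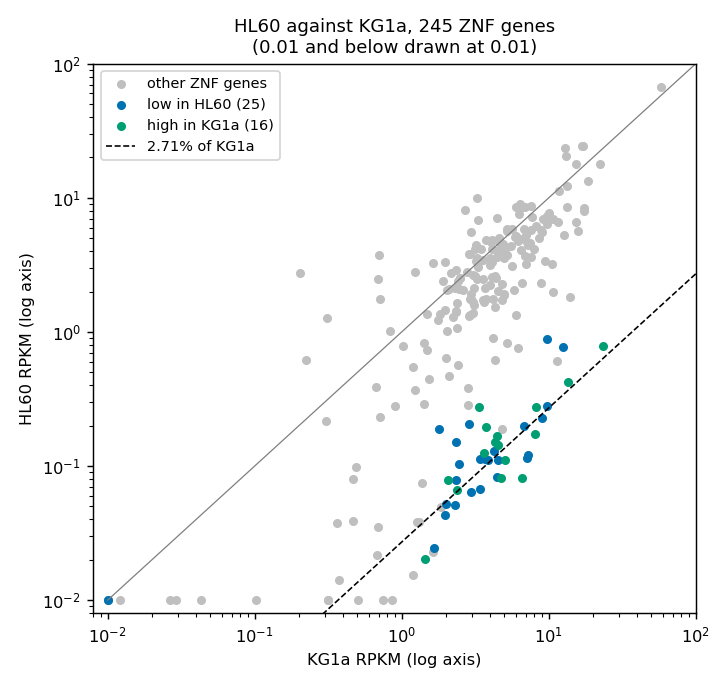
HL60 RPKM (y axis) against KG1a RPKM (x axis) for the 245 genes on log axes, with equality (grey line) and 2.71% of KG1a (dashed line). The 25 genes low in HL60 and the 16 high in KG1a scatter about the dashed line, at medians of 2.87% and 3.23%, while most of the other genes lie nearer equality. Both groups were picked by rules that ask for low HL60 against other lines. Lying well under equality follows largely from that choice.

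Another HL60 stretch lay near the tip of the short arm, from ZNF556 to ZNF77 (2867333 to 2944969, hg19, 77.6 kilobases), where 3 of 3 genes were low. ZNF57 stood at 0.113 RPKM in HL60, against 2.83 RPKM (THP-1), 1.604 (MonoMac-1) and 3.41 (KG1a). ZNF77 stood at 0.112 RPKM in HL60, against 3.55 RPKM (THP-1), 3.46 (MonoMac-1) and 4.54 (KG1a). ZNF556 was listed at 0 in HL60 and in KG1a, and was found in the MLL-AF9 lines alone, at 5.22 RPKM in THP-1 (4.64 to 5.85) and 1.28 in MonoMac-1 (1.096 to 1.496). Just before the block THOP1, a peptidase gene, stood at 47.0 RPKM in HL60, against 37.9 (THP-1), 41.4 (MonoMac-1) and 40.2 (KG1a). On the other side TLE6 was listed at 0 in HL60, against 0.0723 (THP-1), 1.07 (MonoMac-1) and 0.165 (KG1a), so that the far flank was not on in HL60.

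The last HL60 stretch ran from ZNF93 to ZNF85 (20011722 to 21133503, hg19, 1122 kilobases), with 8 ZNF genes and no other listed gene. HL60 had 0 of the 8 at 1 RPKM, against 4 (THP-1), 2 (MonoMac-1) and 8 (KG1a). The summed level was 1.59 RPKM in HL60, against 25.7 (THP-1), 3.78 (MonoMac-1) and 43.9 (KG1a). ZNF93, which binds and represses L1 retrotransposons, stood at 0.767 RPKM in HL60 and 1.23 in MonoMac-1, against 17.8 RPKM (THP-1) and 12.6 (KG1a), and was low in both. ZNF682 stood at 0.0679 RPKM in HL60 and was listed at 0 in MonoMac-1, against 1.27 RPKM (THP-1) and 3.41 (KG1a). ZNF737 stood at 0.0520 RPKM in HL60 and 0.00451 in MonoMac-1, against 1.26 RPKM (THP-1) and 1.999 (KG1a). ZNF85, low in HL60 alone, stood at 0.122 RPKM in HL60, against 5.20 RPKM (THP-1), 2.54 (MonoMac-1) and 7.26 (KG1a). ZNF93, ZNF682 and ZNF737 also formed the single MonoMac-1 stretch of 3 low genes, which was lost when a value of at most 1/16 was asked for.

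Outside these stretches 7 more genes were low in HL60. ZNF836 stood at 0.0244 RPKM in HL60, against 1.27 RPKM (THP-1), 0.626 (MonoMac-1) and 1.67 (KG1a). ZNF525 stood at 0.0433 RPKM in HL60, against 2.53 RPKM (THP-1), 1.28 (MonoMac-1) and 1.97 (KG1a). ZNF558 stood at 0.280 RPKM in HL60, against 2.84 RPKM (THP-1), 3.97 (MonoMac-1) and 9.67 (KG1a). These 3 were low in HL60 alone, as was ZNF813, at 0.151 RPKM in HL60, against 2.08 RPKM (THP-1), 1.40 (MonoMac-1) and 2.33 (KG1a). ZNF347 was low in both HL60 (0.111 RPKM) and MonoMac-1 (listed at 0), against 1.497 RPKM (THP-1) and 3.89 (KG1a). ZNF43 was low in both HL60 (0.230 RPKM) and MonoMac-1 (0.0108), against 2.75 RPKM (THP-1) and 8.98 (KG1a).

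The low genes of MonoMac-1 were spread over 7 blocks, those of HL60 over 5. Of the 20 in MonoMac-1, 6 were listed at 0 and 15 lay under 0.1 RPKM, in the deepest library. A total of 3 fragments of 200 bases, an assumed size, would give 0.0125 RPKM at the median gene in MonoMac-1. Totals in multiples of 100, few in MonoMac-1, point to a unit of 100 bases. Odd multiples occurred, such as 100 on ZNF812 in HL60, which whole fragments of 200 cannot give. Fragment numbers and intervals are therefore approximate in every line, above all in MonoMac-1. With 200 bases 11 of the 15 lay at or under their own level of 3 fragments, and ZNF439, ZNF43, ZNF91 and ZNF528 above it. ZNF256 was listed at 0 in MonoMac-1 (3 fragments would be 0.0173 RPKM), against 2.43 RPKM (THP-1), 7.21 (HL60) and 7.64 (KG1a). ZNF329 stood at 0.00186 RPKM in MonoMac-1, under the value of 1 fragment of 200 bases, against 1.55 RPKM (THP-1), 4.14 (HL60) and 4.64 (KG1a). ZNF841 stood at 0.00556 RPKM in MonoMac-1, against 6.70 RPKM (THP-1), 3.09 (HL60) and 5.65 (KG1a). The genes on its sides, ZNF432 and ZNF616, stood at 0.825 and 2.62 RPKM in MonoMac-1 and were not low, so a single gene was silent there.

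Elsewhere MonoMac-1 was low in pairs of neighbours. ZNF829 and ZNF568, whose promoters are shown above, start 41 bases apart on opposite strands. ZNF829 stood at 0.00402 RPKM in MonoMac-1, against 0.531 RPKM (THP-1), 1.68 (HL60) and 3.63 (KG1a). ZNF568 was listed at 0 in MonoMac-1, against 0.906 RPKM (THP-1), 1.76 (HL60) and 2.93 (KG1a). Of 3 neighbour pairs with starts within 1000 bases on opposite strands this was the closest. In the others 1 gene of each stood above 1 RPKM in MonoMac-1 and its partner below it: ZNF529 with ZNF382 (43 bases apart) at 1.598 and 0.683 RPKM, and ZNF490 with ZNF791 (109 bases) at 0.720 and 3.37. ZNF285 was listed at 0 in MonoMac-1, against 1.35 RPKM (THP-1), 2.11 (HL60) and 3.10 (KG1a). The gene after it, ZNF229, was listed at 0 in both THP-1 and MonoMac-1, against 4.18 RPKM (HL60) and 3.47 (KG1a), and was the 1 gene low in THP-1. ZNF610 stood at 0.00531 RPKM in MonoMac-1, against 1.89 RPKM (THP-1), 0.443 (HL60) and 1.54 (KG1a), and ZNF528 at 0.0111 RPKM in MonoMac-1, against 2.79 RPKM (THP-1), 0.380 (HL60) and 2.83 (KG1a). ZNF880 between them, too weak in the other lines to be compared, stood at 0.00281 RPKM in MonoMac-1 and 4.82 in KG1a. ZNF257, a neighbour of ZNF43, stood at 0.160 RPKM in MonoMac-1, against 3.19 RPKM (THP-1), 0.611 (HL60) and 11.5 (KG1a).

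**Figure D5:**
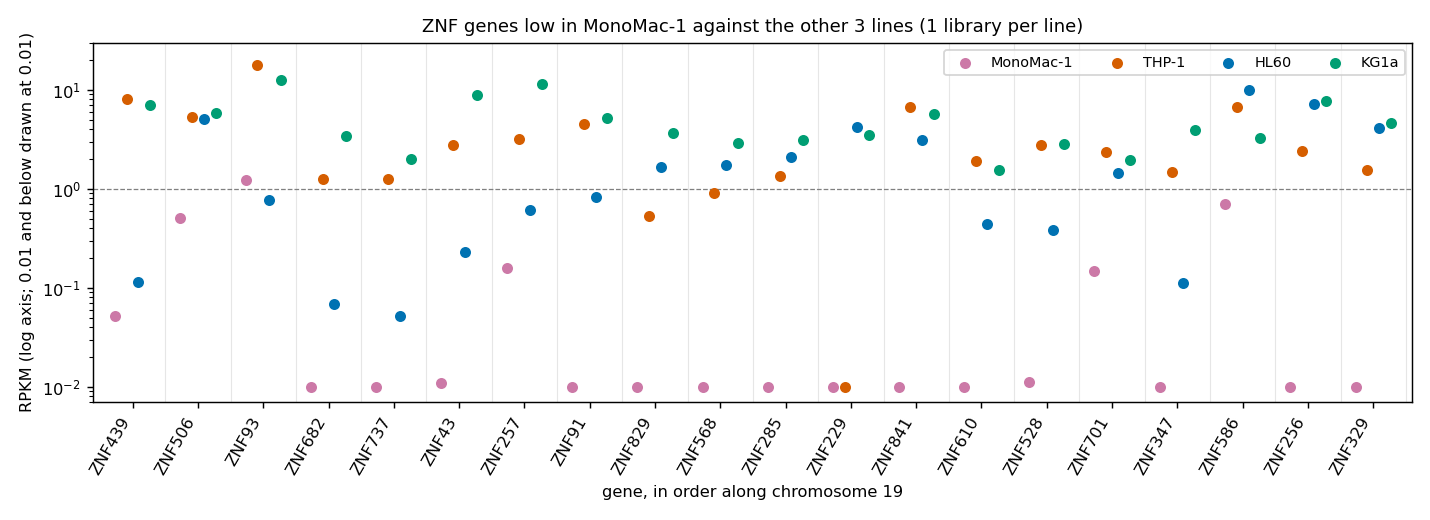
RPKM (log y axis, values of 0.01 and below drawn at 0.01) of the 20 genes low in MonoMac-1, in order along chromosome 19 (x axis), with MonoMac-1 beside the other 3 lines. The dashed line marks 1 RPKM. MonoMac-1 lies under 0.1 RPKM for 15 of the 20, and HL60 was also low in 6, among them ZNF439, ZNF682 and ZNF737.

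A run of 9 genes at the start of the ZNF628 block did not share the low level of MonoMac-1; it was picked out after the values were seen. From ZNF628 to ZNF444 (55987699 to 56672262, hg19) the summed level was 99.05 RPKM in MonoMac-1, against 66.5 (THP-1), 77.8 (HL60) and 82.5 (KG1a), and 6 of the 9 genes had their highest value in MonoMac-1. ZNF580 stood at 16.6 RPKM in MonoMac-1, against 5.49 RPKM (THP-1), 5.27 (HL60) and 12.7 (KG1a). ZNF444, which carries a SCAN domain in place of KRAB, stood at 11.7 RPKM in MonoMac-1, against 7.83 RPKM (THP-1), 7.36 (HL60) and 9.73 (KG1a).

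KG1a stood out by genes far above their level in the other lines. By the reverse rule, at least 1 RPKM and at least 8 times the highest of the other 3 lines, 16 of 222 genes (7.21%) were high in KG1a, where 3.32% of all genes were. The count was 1 in THP-1 (1.76% of all genes) and 0 in MonoMac-1 (1.13%) and in HL60 (0.516%). The 16 lay in 8 blocks, at levels from 1.44 RPKM (ZNF702P, a pseudogene) to 23.3 (ZNF358). Among the highest by fold, ZNF681 stood at 4.73 RPKM in KG1a, against 0.00195 RPKM (MonoMac-1) and 0.0813 (HL60) and 0 as listed in THP-1. ZNF486 stood at 8.04 RPKM in KG1a, against 0.147 RPKM (THP-1) and 0.174 (HL60) and 0 as listed in MonoMac-1. ZNF844 stood at 5.01 RPKM in KG1a, against 0.0887 RPKM (THP-1), 0.0246 (MonoMac-1) and 0.111 (HL60). ZNF702P stood at 1.44 RPKM in KG1a, against 0.0171 RPKM (THP-1), 0.00463 (MonoMac-1) and 0.0203 (HL60). The next highest line was HL60 for 12 of the 16. In HL60 the 16 lay at a median of 3.23% of KG1a (1.22% to 8.14%), beside the share of 2.71% given above. The rule for high genes itself allows at most 1/8. Of the 16, 4 lay between ZNF93 and ZNF85 (ZNF90, ZNF486, ZNF826P and ZNF626), so that KG1a alone had every gene of that stretch on.

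The single gene high in THP-1 was ZNF98, at 2.68 RPKM in THP-1 (2.33 to 3.07), against 0.0434 in KG1a (0.0159 to 0.0945), and listed at 0 in the other lines. KG1a was low in ZNF556, listed at 0, and in ZNF114, at 0.203 RPKM in KG1a, against 2.13 RPKM (THP-1), 1.93 (MonoMac-1) and 2.75 (HL60).

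The 6 listed genes whose proteins bind transposable elements did not go together. ZNF91, which represses SVA elements, stood at 0.00935 RPKM in MonoMac-1 (0.00253 to 0.0240), against 4.57 RPKM (THP-1), 0.832 (HL60) and 5.18 (KG1a). In the same block ZNF675 stood at 3.65 RPKM in MonoMac-1. ZNF649, which binds L1 elements, stood at 3.66 RPKM (THP-1), 0.942 (MonoMac-1), 8.13 (HL60) and 2.68 (KG1a), and ZNF765, which does so too, at 3.33 RPKM (THP-1), 2.16 (MonoMac-1), 2.90 (HL60) and 2.34 (KG1a). ZNF417 and ZNF587, near-identical genes that repress HERV-K elements, stood at 2.40 RPKM or more in every line. Of the 6 genes of this list 2 were low in MonoMac-1 (ZNF91 and ZNF93), 1 in HL60 (ZNF93) and 0 in THP-1 and KG1a, where 2.42% (MonoMac-1) and 5.53% (HL60) of all genes and 10.6% (MonoMac-1) and 13.8% (HL60) of chromosome 19 ZNF genes were low.

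Of 8 genes known for promoter methylation in tumours, 5 reached 1 RPKM in some line and 0 were low in a line. Of all genes 1.95% (THP-1) to 8.13% (KG1a) were low, so a count of 0 in so short a list does not set it apart. ZNF671 was on throughout, at 5.68 RPKM (THP-1), 4.37 (MonoMac-1), 4.54 (HL60) and 4.86 (KG1a). ZNF331 stood at 1.94 RPKM (THP-1), 1.15 (MonoMac-1), 1.88 (HL60) and 4.94 (KG1a). ZNF577 stood at 1.83 RPKM (THP-1), 0.452 (MonoMac-1), 2.82 (HL60) and 1.23 (KG1a), and ZNF132 at 2.15 RPKM (THP-1), 0.609 (MonoMac-1), 2.48 (HL60) and 0.694 (KG1a). ZNF382 stood at 0.595 RPKM (THP-1) and 0.683 (MonoMac-1), against 2.52 RPKM (HL60) and 4.35 (KG1a). ZNF154, ZNF471 and ZNF677 stayed under 0.5 RPKM in every line and so could not be called low.

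The series is named for MLL-AF9 leukemia, so THP-1 and MonoMac-1 were set against HL60 and KG1a, although fusion, lineage and single lines cannot be told apart. The 4-fold margin used here is between the nearest lines of the pairs, on RPKM itself. By that margin 9 of 222 genes (4.05%) were lower, where 2.21% of all genes were, and 1 (0.450%) was higher, where 4.35% of all genes were. The higher gene was ZNF556, described above. The lower genes were ZNF229, ZNF418, ZNF625, ZNF90, ZNF826P, ZNF626, ZNF681, ZNF667 and ZNF835. With the KG1a share taken off HL60, 4 of the 9 were left: ZNF229, ZNF418, ZNF667 and ZNF826P. In HL60 ZNF826P then held 0.0930 RPKM, under its level of 3 fragments (0.0958). ZNF667 held 0.0266 RPKM, above its own (0.0137), and ZNF229 held 4.09. Only the median share of 2.71% was taken off, though it ran from 2.40% to 8.03% over the genes used. The HL60 values of ZNF826P (5.21% of KG1a) and ZNF667 lay within that range. What was left of both thus depends on the share taken. For ZNF418 the lower line of the pair was KG1a. All genes were not counted with the KG1a share taken off, so the 4 genes left cannot be set against the 2.21%. ZNF418 stood at 0.0455 RPKM (THP-1) and 0.00344 (MonoMac-1), against 1.28 RPKM (HL60) and 0.311 (KG1a). ZNF667 was listed at 0 in THP-1 and stood at 0.000760 RPKM in MonoMac-1, against 0.125 RPKM (HL60) and 3.63 (KG1a). By any margin 74 of 222 (33.3%) were lower in both, where 19.6% of all genes were, and 6 (2.70%) were higher, where 22.1% of all genes were. The 4-fold counts shifted with the lines used. The lower count was 2 without KG1a, 27 without HL60 and 39 without THP-1, and the higher count was 20 without KG1a and 2 without each other line. Leaving out a line loosens the margin for every gene, and the 1 RPKM filter then rests on the lines left. The share of all genes was not counted this way, so these counts are no trait of the ZNF genes.

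Limma was then run on log2(RPKM + 1), a scale that understates the change of genes this weak. The line was the unit, with 2 residual degrees of freedom, so its p-values measure the spread between different lines. That spread was not taken from each gene alone, since eBayes draws its variance towards that of genes of like level. None of the 222 genes passed an adjusted p of 0.05 (limma, 0 of 222, and 0 of all 12976 genes). At an unadjusted p under 0.05 limma gave 8 lower, where 2.64% of all genes were, and 1 higher, where 5.91% were. The median log2 difference was -0.39 over the 222 genes and 0.02 over all genes. The lowest p belonged to ZNF229, with a log2 difference of -2.27 ± 0.48 (SE; limma adjusted p = 0.319). ZNF426, at 2.54 RPKM (THP-1) and 1.29 (MonoMac-1), against 6.57 RPKM (HL60) and 11.5 (KG1a), gave -1.77 ± 0.52 (limma adjusted p = 0.479). ZNF256 gave -2.19 ± 0.71 (limma adjusted p = 0.520) and ZNF556 1.91 ± 0.66 (limma adjusted p = 0.541). Of the 14 co-repressor genes, among them ZNF274 of the 222, 0 passed the limma test after adjustment and 0 at an unadjusted p under 0.05. They are too few to set against the 2.64% and 5.91% of all genes. Their median log2 difference was -0.12.

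RefSeq promoter windows were found for 209 of the 245 genes. They held a median of 20 CpG (quartiles 15 and 26), against 14 (3 and 28) over 27305 windows of all genes. Genes low in HL60 held a median of 14.5 CpG (12 and 22, n = 24), against 22 (17 and 27, n = 137) for compared genes that were not low there. For MonoMac-1 these medians were 21 (n = 18) and 22 (n = 151), and genes high in KG1a held a median of 16 (n = 13). Single genes did not follow these medians. ZNF136 has more CpG in its window than its silent neighbours ZNF20 and ZNF44, but ZNF433, low in HL60, has 22 as well, ZNF558 and ZNF57, also low there, have 34 and 29, and ZNF564, on in HL60, has 13. ZNF829 and ZNF568, silent in MonoMac-1, have more than the median of 20. Neighbours in a stretch are related by descent, so their windows are not independent, and methylation was not measured. Fingers were counted in the longest reading frame of GENCODE transcripts for 237 genes, with a median of 12 and up to 36 (ZNF208). The median was 13.5 fingers for genes low in HL60 and 12.5 for genes low in MonoMac-1, against 12 for the compared genes that were not low in each line.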

How the data were processed

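RNA of 4 lines came from TRIzol extraction and went into libraries by standard Illumina protocols, per the labels' protocols. The submitters' processing notes list CASAVA 1.8.2 and hg19; the aligner, annotation and strand handling were not given in the sources used here. Each table holds the RPKM that the authors deposited and a coverage signal, deposited with no unit and read from its values as sequenced bases on the gene (divided by 200 for fragment equivalents). Of 21893 entries 21865 symbols were kept, a repeated symbol by its highest mean. Intervals are exact Poisson 95% intervals and, like the limit of 3 fragments, cover counting error only.

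Genes, lists and rules were chosen with earlier results of these data known. Named were the 6 highest means, genes of stretches of at least 3, the 6 lowest per line outside them, the 4 highest per line by fold, 4-fold genes, the 4 lowest limma p-values, block ends and 2 lists; other genes were picked after their values were seen. FAM208A, on the co-repressor list, was not found by that symbol. Limma 3.58.1 (R 4.3.3) used eBayes with trend, two-sided, with Benjamini-Hochberg adjustment over 12976 genes. It was also run on simulated data whose spread was set by hand, and the calling rules on a small made-up table. Neither check shows how limma performs at the spread between these lines. Other values came from Python 3.11.15 and pandas 2.3.3, and reading frames from Biopython 1.88. A finger was 2 cysteines with 2 to 4 residues between them, 12 residues, and 2 histidines with 3 to 5 between them. Alternatives changed thresholds, comparators, block gaps, pseudocount, filter and scaling (median of ratios), took the KG1a share off HL60, and left out lines.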

Additional observations from a re-analysis of the deposited data

How the results depend on the processing

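Median-of-ratios scaling, with shifts of -0.05 to 0.04 on the log2 scale, moved no count by over 1.5 times and kept all 25 genes low in HL60 and all 20 low in MonoMac-1. At 2 RPKM 84 genes counted as expressed in MonoMac-1. Against the lowest of the other 3 lines, 15 genes were low in HL60, 6 in MonoMac-1, 1 in KG1a and 0 in THP-1. With other lines at 2 RPKM or more, 13 were low in MonoMac-1 and 1 in KG1a. At 1/4 there were 4 in THP-1, and at 1/16 there was 1 in KG1a. Leaving out each other line, an alternative chosen after the data were seen, gave 1 to 15 in THP-1, 17 to 38 in MonoMac-1, 22 to 45 in HL60 and 1 to 3 in KG1a.

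HL60 stretches held 10 genes with other lines at 2 RPKM or more, 8 against the lowest other line, and 15 to 29 as other lines were left out. The MonoMac-1 stretch held 5 genes at 1/4, 9 with other lines at 0.5 RPKM or more, 11 in runs of at least 2 and 6 with blocks broken at 1000000 bases. It was 0 at 1/16, with other lines at 2 RPKM or more, against the lowest other line, in runs of at least 4 and with blocks broken at 250000 bases, and 3 to 14 as other lines were left out, while THP-1 stretches held 0 to 3. At 4 times, 2 genes were high in THP-1 and 1 in HL60.

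Genes higher in both MLL-AF9 lines numbered 2 at 2-fold, 3 without a filter and 2 to 20 as lines were left out. Lower ones numbered 17 at 2-fold, 5 at 8-fold, 0 with at least 5 RPKM in some line, 4 with the KG1a share taken off and 2 to 39 as lines were left out. Limma called 0 of these genes under each alternative run, with 3 to 27 at an unadjusted p under 0.05. The causes of these shifts were not tested. No paired analysis was possible because each line has 1 library, and the spread between cultures of a line is unknown.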
